A study of Homo sapiens with 12 samples.

Results

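Genes encoding sequence-specific regulators of mRNA stability and translation were followed, listed by name: ZFP36, ZFP36L1, ZFP36L2, ELAVL1, KHSRP, HNRNPD, RC3H1, RC3H2 and PUM2. All 9 were found among the 60662 genes of the RNA count files and among the 12224 genes of the series table. The samples were HEK293T cells, an established human embryonic kidney line labelled wild type. For 6 h they were kept in 0.2% DMSO, alone or with 20 µM STM2457, which inhibits METTL3, the enzyme that writes m6A on mRNA. Both arms also got 10% extra fetal bovine serum 1 h before lysis and cycloheximide at 100 µg/ml for the last 3 min, so the DMSO libraries are themselves from serum-boosted cells. Each arm has 4 libraries of poly(A) RNA-seq and 2 of Ribo-seq, which reads the fragments of 26 to 34 nt that ribosomes protect. Whether replicates came from separate cultures is not given, and p-values therefore cover the spread between libraries alone, possibly a technical one.

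The regulators bind short elements, mostly in the untranslated end of mRNAs. AU-rich elements (AREs) are bound by the ZFP36 family, which recruits deadenylases and speeds decay, by KHSRP and HNRNPD (AUF1), which are mostly linked to decay, and by ELAVL1 (HuR), which mostly stabilises its mRNAs. The Roquin proteins RC3H1 and RC3H2 bind stem-loops and repress mRNAs of immune signalling, and Pumilio proteins such as PUM2 bind a short UGUA-containing motif and recruit the same deadenylases. Several of these mRNAs carry such elements themselves, and the ZFP36 family is known to repress its own transcripts.

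Genes counted in the RNA files summed to 43112223 to 51425432 reads per library, and footprint reads recovered from the table to 3198063 to 4711513. ERCC spike-ins took 0.389 to 0.408% of the counts with DMSO and 0.415 to 0.466% with STM2457. All 6 markers fixed for HEK293 cells were detected, at a mean of 4.71 CPM (read counts scaled to a common library size with TMM) or more. Markers below 0.5 CPM were 5 of 6 for blood, 5 of 5 for hepatocytes, 3 of 6 for epithelial carcinoma cells and 4 of 7 for fibroblasts. The HEK293 markers summed to 575.5 to 618.7 CPM with DMSO and to 689.9 to 738.9 CPM with STM2457, with the arms apart, and the part of this in the results was not tested. The summed level of the fibroblast list ran from 17.7 to 22.3 CPM with DMSO and 18.4 to 19.8 with STM2457, and that of the epithelial list from 7.88 to 9.04 and 7.38 to 8.83. METTL3 RNA averaged 75.7 ± 6.71 CPM in the DMSO and 83.3 ± 6.71 CPM in the STM2457 arm (SD, n = 4). STM2457 blocks the enzyme, so this level does not check the treatment.

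In RNA, ZFP36L1, ZFP36L2 and RC3H1 rose with STM2457 and HNRNPD fell, while ZFP36, ELAVL1, KHSRP, RC3H2 and PUM2 did not pass the test. These 4 calls of 9 stand beside 47.8% of all 17807 genes tested, so the share of members called is near that of genes in general. The 3 higher members stand beside 26.2% of all genes and the 1 lower member beside 21.6%. The median log2 change was 0.10 over the 9 members and 0.00 over all genes. All 9 passed the filter on low counts. Calls are edgeR quasi-likelihood tests with Benjamini-Hochberg adjusted p under 0.05 over all genes. In bulk RNA, a change in the number of cells that express a gene and a change per cell cannot be told apart.

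The ZFP36 family has 3 members here with the same tandem zinc-finger fold, and they did not change alike. ZFP36L1 (ENSG00000185650, chromosome 14), also called BRF1 or TIS11B, had the largest increase among the members. Its RNA was at 46.5, 42.3, 44.2 and 50.8 CPM in the DMSO libraries and 86.3, 75.8, 79.7 and 73.7 CPM in the STM2457 libraries. Every STM2457 library was above every DMSO library, as in 24.9% of all genes. The fold change was 1.72 (log2 0.78, SE 0.06, edgeR adjusted p = 2.68e-07).

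ZFP36L2 (ENSG00000152518, chromosome 2), the paralog TIS11D, was at 61.0, 65.8, 63.2 and 65.6 CPM with DMSO and 86.8, 90.7, 81.0 and 84.9 CPM with STM2457. The arms did not overlap here either, and the increase was 1.34-fold (log2 0.43, SE 0.04, edgeR adjusted p = 1.26e-06). ZFP36 (tristetraprolin, ENSG00000128016, chromosome 19), the founding member and a serum-induced gene, was near 3 to 4 CPM in every library. Its values were 3.24, 3.17, 3.36 and 3.81 CPM with DMSO and 3.94, 3.78, 4.37 and 3.496 CPM with STM2457, so the arms overlapped. With 158 to 196 reads per library, the log2 change of 0.20 (95% interval 0.00 to 0.39) did not pass (edgeR adjusted p = 0.093). Without DMSO replicate 4, the highest of the DMSO libraries, it was 0.25 (edgeR adjusted p = 0.0441).

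Start-site sequences are shown for the only windows of the members that held a searched motif, which belong to ZFP36L1 and ZFP36. The 250 bases before a start were taken from RefSeq (GRCh38.p14), which gave windows for 7 of the 9 members (not for ZFP36L2 and ELAVL1) and 10 windows in all, and capitals mark a motif. The windows are chr14:68793417-68793666 on the minus strand, before the inner of the 2 ZFP36L1 starts, and chr19:39406597-39406846 on the plus strand for ZFP36.
ZFP36L1: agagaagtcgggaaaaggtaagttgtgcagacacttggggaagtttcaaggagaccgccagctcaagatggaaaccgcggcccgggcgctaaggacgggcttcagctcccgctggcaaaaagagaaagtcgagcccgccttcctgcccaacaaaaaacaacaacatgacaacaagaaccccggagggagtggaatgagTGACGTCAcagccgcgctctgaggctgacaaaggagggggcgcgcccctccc
ZFP36: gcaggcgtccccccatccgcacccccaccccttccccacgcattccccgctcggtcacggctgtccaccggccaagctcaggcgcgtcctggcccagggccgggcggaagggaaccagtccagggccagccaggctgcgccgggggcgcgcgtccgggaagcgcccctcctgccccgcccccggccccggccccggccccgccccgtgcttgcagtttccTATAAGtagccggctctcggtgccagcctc
Searched on both strands were TGACGTCA (the palindromic cAMP-response element), TATAAG (a form of the TATA box of core promoters), GCGGGGGCG (an EGR-type site) and the CArG box of serum response factor. TGACGTCA was in the ZFP36L1 window and in 1.65% of all 35116 windows, and TATAAG in the ZFP36 window and in 5.03% of all. The other 8 windows of the members held none of the 4 motifs, among them the other ZFP36L1 window. TATAAA, another form of the TATA box, was not searched for and stands in the HNRNPD and RC3H1 windows. GCGGGGGCG was in 4.72% and the CArG box in 1.16% of all windows. A match is a description of these letters only.

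Among the other ARE-binding genes, HNRNPD fell slightly and evenly, and ELAVL1 and KHSRP did not pass. HNRNPD (ENSG00000138668, chromosome 4) was at 635.6, 628.0, 613.7 and 626.7 CPM with DMSO and at 577.9, 584.1, 567.6 and 594.5 CPM with STM2457. All 4 STM2457 libraries lay below the DMSO libraries, as in 19.8% of all genes, though the log2 change was only -0.11 (SE 0.02, edgeR adjusted p = 0.00133). With replicates 3 and 4 only it was -0.09 and no longer passed (edgeR adjusted p = 0.0564).

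KHSRP (ENSG00000088247, chromosome 19), a KH-domain protein that also acts in microRNA processing, was at 696.6, 726.1, 719.4 and 714.9 CPM with DMSO. It was at 688.5, 701.9, 664.3 and 710.9 CPM with STM2457, and the arms overlapped (log2 -0.05, SE 0.03, edgeR adjusted p = 0.148). ELAVL1 (ENSG00000066044, chromosome 19) was at 219.8 to 223.6 CPM with DMSO and 215.9 to 224.9 CPM with STM2457 (log2 -0.01, 95% interval -0.06 to 0.04, edgeR adjusted p = 0.748).

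Of the Roquin genes, RC3H1 rose and its paralog RC3H2 did not pass. RC3H1 (ENSG00000135870, chromosome 1) was at 47.5, 44.9, 45.4 and 44.1 CPM with DMSO and 55.7, 58.9, 49.3 and 55.9 CPM with STM2457. The arms did not overlap, but STM2457 replicate 3 was close to the DMSO libraries. The fold change was 1.21 (log2 0.28, SE 0.05, edgeR adjusted p = 0.000459).

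RC3H2 (ENSG00000056586, chromosome 9) was at 151.1, 144.6, 140.9 and 137.4 CPM with DMSO and 148.7, 149.6, 130.4 and 138.8 CPM with STM2457. These values were mixed between the arms (log2 -0.02, 95% interval -0.11 to 0.08, edgeR adjusted p = 0.798). PUM2 (ENSG00000055917, chromosome 2) was at 112.7, 113.3, 116.9 and 106.7 CPM with DMSO and 123.7, 128.1, 108.4 and 121.3 CPM with STM2457. Here too STM2457 replicate 3 was the low library of its arm and the arms overlapped, with a log2 change of 0.10 (SE 0.05, edgeR adjusted p = 0.0972). Without that library the change was 0.15 and passed (edgeR adjusted p = 0.00217), as it did with replicates 1 and 2 only (0.14, edgeR adjusted p = 0.00171) and with no filter on low counts (0.09, edgeR adjusted p = 0.0408).

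**Figure D1:**
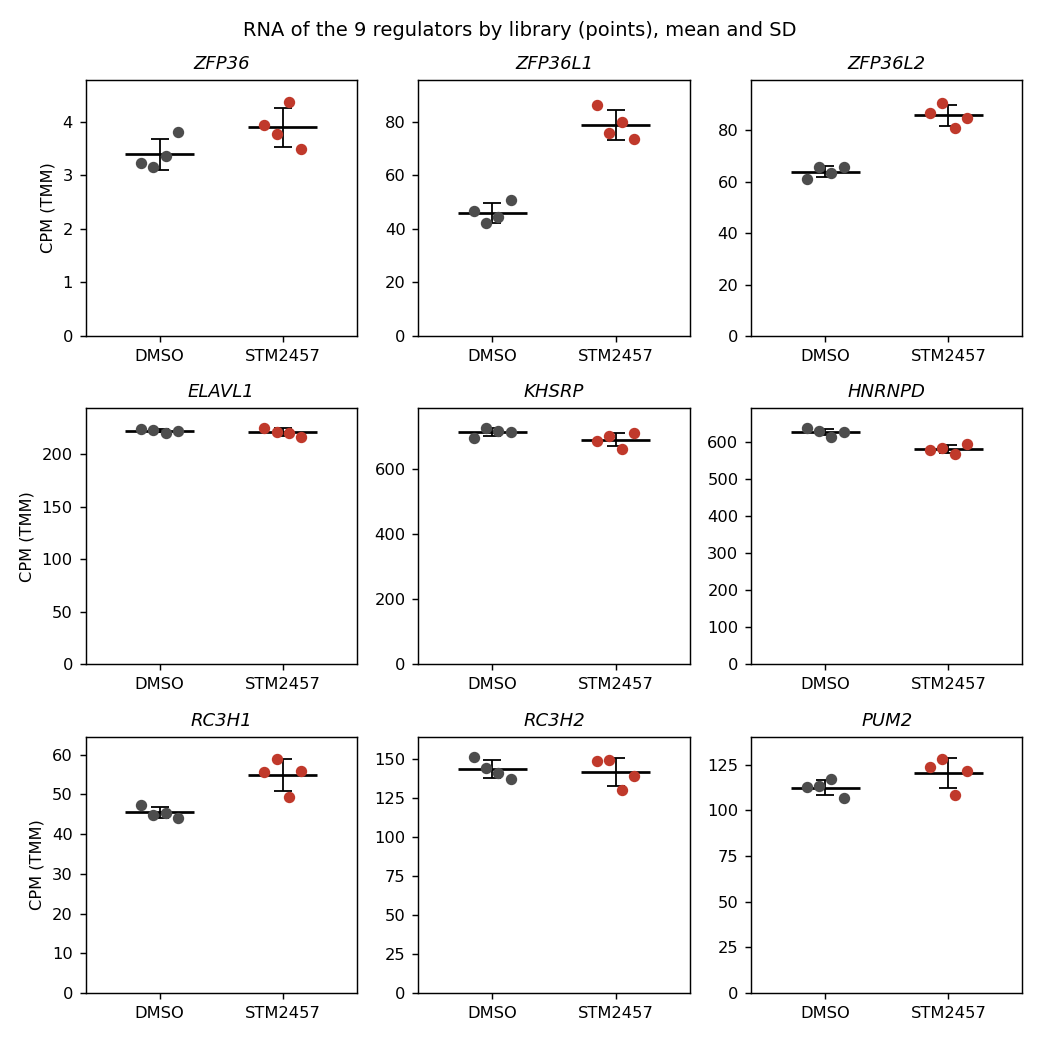
RNA level in CPM (TMM-scaled, axes from 0) of each member in the 4 DMSO and 4 STM2457 libraries, one point per library, with the mean and SD. The arms are apart for ZFP36L1, ZFP36L2, RC3H1 and HNRNPD and overlap for the other 5 members.

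The size of these changes depends on the scaling. With scaling on the ERCC spike-ins the log2 change of the median gene was -0.19, and 59.2% of genes were called, 12.1% higher and 47.1% lower. On this scale ZFP36L1 (0.58) and ZFP36L2 (0.23) were still higher, while RC3H1 (0.08, edgeR adjusted p = 0.269) no longer passed. Below DMSO were then HNRNPD (-0.30), KHSRP (-0.24), RC3H2 (-0.21) and ELAVL1 (-0.20), all past the test. PUM2 turned to -0.10 (edgeR adjusted p = 0.111), and ZFP36 was at 0.00 (edgeR adjusted p = 0.985).

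A ratio of paralogs within a library does not depend on the scaling between libraries, so it asks whether paralogs changed unequally. Ratios are given for 4 pairs, with exact two-sided permutation tests of 4 against 4 libraries, whose smallest possible p is 0.0286, adjusted over the 5 pairs tested. RC3H1 over RC3H2 rose by 0.29 on the log2 scale, from -1.66 ± 0.02 with DMSO to -1.37 ± 0.05 with STM2457 (SD, n = 4, exact permutation p = 0.0286, adjusted 0.0476). All 4 STM2457 libraries were above all DMSO libraries, STM2457 replicate 3 included.

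Within the ZFP36 family, the ratio of ZFP36L1 to ZFP36 rose by 0.58 (from 3.74 ± 0.06 to 4.33 ± 0.11) and that of ZFP36L2 to ZFP36L1 fell by 0.35 (from 0.48 ± 0.12 to 0.12 ± 0.13). Both had an exact permutation p of 0.0286 (adjusted 0.0476, n = 4 per arm), and in both the arms were apart. Here and for RC3H1 over RC3H2, the adjusted value is under 0.05 only because several pairs tie at the smallest possible p. Both ratios contain ZFP36L1 and are not independent of each other. ZFP36L2 over ZFP36 differed by 0.23 and did not pass (exact permutation p = 0.114, adjusted 0.143), with 3 of 4 STM2457 libraries above the DMSO libraries.

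**Figure D2:**
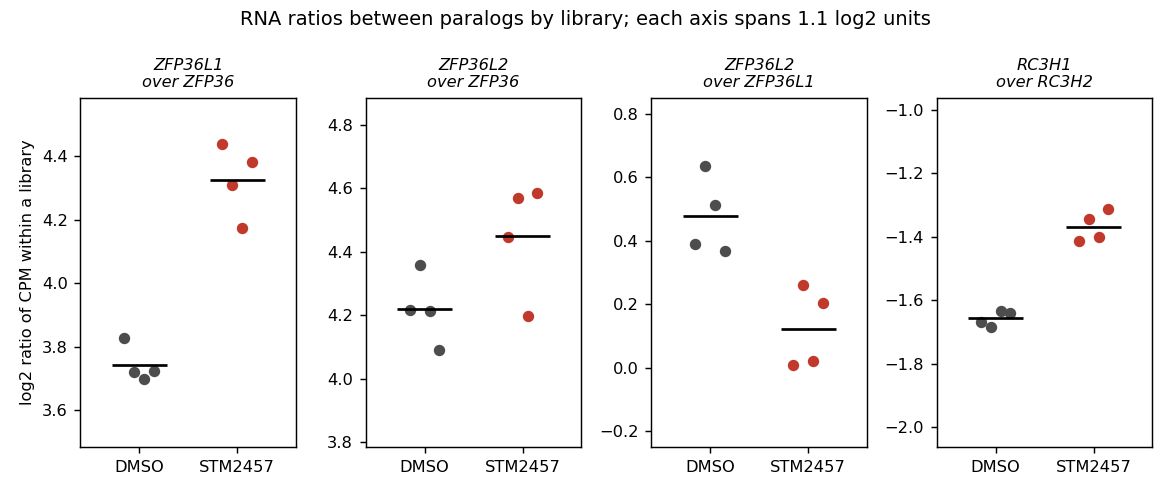
Log2 ratio of CPM between paralogs within each RNA-seq library (points), with the arm mean as a bar, each axis spanning an equal range. The ratios of ZFP36L1 to ZFP36, ZFP36L2 to ZFP36L1 and RC3H1 to RC3H2 are apart between the arms, and those of ZFP36L2 to ZFP36 overlap.

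Footprints of ZFP36L1 and ZFP36L2 rose and those of HNRNPD fell, the directions of their RNA. Among 10906 genes tested with limma, 15.7% were called in either direction, and 3 of the 9 members were: ZFP36L1 and ZFP36L2 higher (9.59% of all genes) and HNRNPD lower (6.13%). Signals are the authors' normalized footprint reads, and log2 changes are on the scale of log2(signal + 1).

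ZFP36L1 footprint signal was 663.0 and 636.2 with DMSO and 1132 and 1249 with STM2457, from 132 to 320 reads per library, a log2 change of 0.87 (SE 0.14, limma adjusted p = 3.51e-06). ZFP36L2 was at 1081 and 1065 with DMSO and 1231 and 1710 with STM2457, so most of its increase came from STM2457 replicate 2. Its log2 change of 0.43 (SE 0.13, limma adjusted p = 0.0166) became 0.20 without that library (limma adjusted p = 0.476). The call was also lost without DMSO replicate 1 (limma adjusted p = 0.0520) and without DMSO replicate 2 (limma adjusted p = 0.0789), though the change stayed at 0.45 and 0.42.

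HNRNPD footprints went from 16653 and 18170 to 14379 and 13720, a log2 change of -0.31 (SE 0.08, limma adjusted p = 0.0033). Without DMSO replicate 2 the change was -0.25 and did not pass (limma adjusted p = 0.229), which left ZFP36L1 as the 1 member called. ZFP36 footprints rested on few reads, 21 and 18 with DMSO and 9 and 16 with STM2457. Its signal was 67.6 and 86.8 with DMSO and 34.2 and 62.5 with STM2457, and the log2 change of -0.72 had a 95% interval from -1.65 to 0.22 (limma adjusted p = 0.338).

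PUM2 footprint signal was 1007 and 1051 with DMSO and 1382 and 1140 with STM2457, above DMSO in both libraries. Signals of 2 against 2 libraries did not overlap in 54% of all genes. Its log2 change of 0.29 (SE 0.13) did not pass (limma adjusted p = 0.141), except without STM2457 replicate 2 (0.43, limma adjusted p = 0.0416).

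The RC3H1 signal was 424.8 and 400.0 with DMSO and 410.2 and 531.0 with STM2457, so 1 STM2457 library lay between the DMSO values (log2 0.18, limma adjusted p = 0.594). RC3H2 was at 428.1 and 327.7 with DMSO and 433.0 and 367.0 with STM2457 (log2 0.09, limma adjusted p = 0.827). ELAVL1 went from 5455 and 5138 to 5006 and 4619 (log2 -0.14, limma adjusted p = 0.342) and KHSRP from 12227 and 12902 to 11086 and 12127 (log2 -0.12, limma adjusted p = 0.381), neither past the test.

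**Figure D3:**
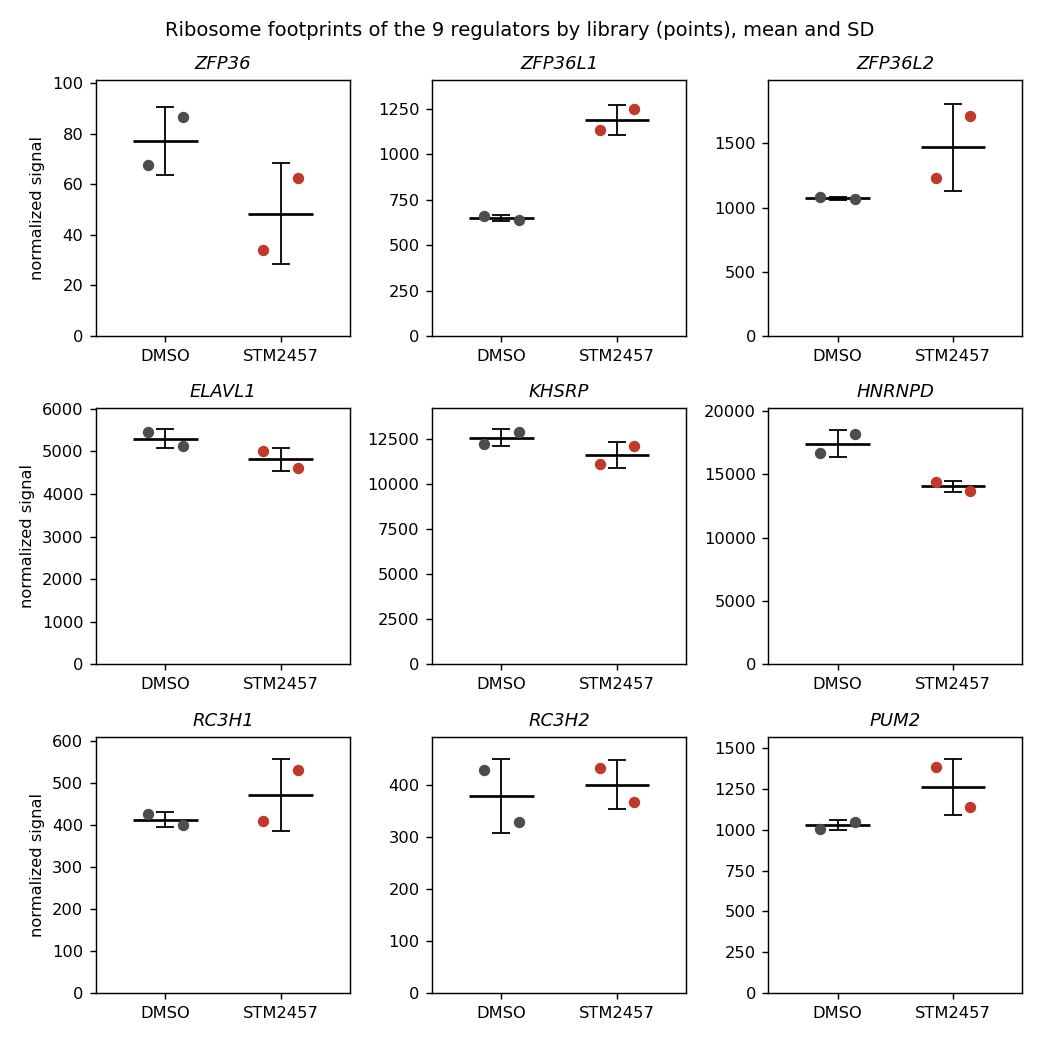
Normalized footprint signal (the authors' unit, axes from 0) of each member in the 2 DMSO and 2 STM2457 Ribo-seq libraries, one point per library, with the mean and SD. ZFP36L1 and HNRNPD have arms well apart, ZFP36L2 has 1 high STM2457 library, and ZFP36 rests on 9 to 21 reads per library.

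Translational efficiency, footprint signal over RNA signal of the same table, did not pass the test of change for any of the 9 members. The call rate over 10906 genes was 1.04% (0.229% higher, 0.807% lower) in the limma fit with a weight per assay. At an unadjusted p under 0.05 that fit had 0 members and limma with a shared spread 2 (PUM2 and ZFP36). The edgeR interaction had 2 (HNRNPD and ZFP36), and after adjustment each of the 3 fits had 0. That interaction took its RNA from the deposited gene counts, not from the RNA signal of the table, so it tested a related but different ratio. In it HNRNPD changed by -0.19 (edgeR adjusted p = 0.0701). The largest difference was that of ZFP36 (log2 -0.79, 95% interval -1.65 to 0.06, limma adjusted p = 0.582), on the few footprint reads given above. For ZFP36L1 the change was 0.18 (95% interval -0.22 to 0.57) and for HNRNPD -0.12 (95% interval -0.31 to 0.08). Intervals were of similar, narrow width for KHSRP (-0.20 to 0.18), HNRNPD and ELAVL1 (-0.25 to 0.15), and wider for RC3H1 (-0.48 to 0.50).

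**Figure D4:**
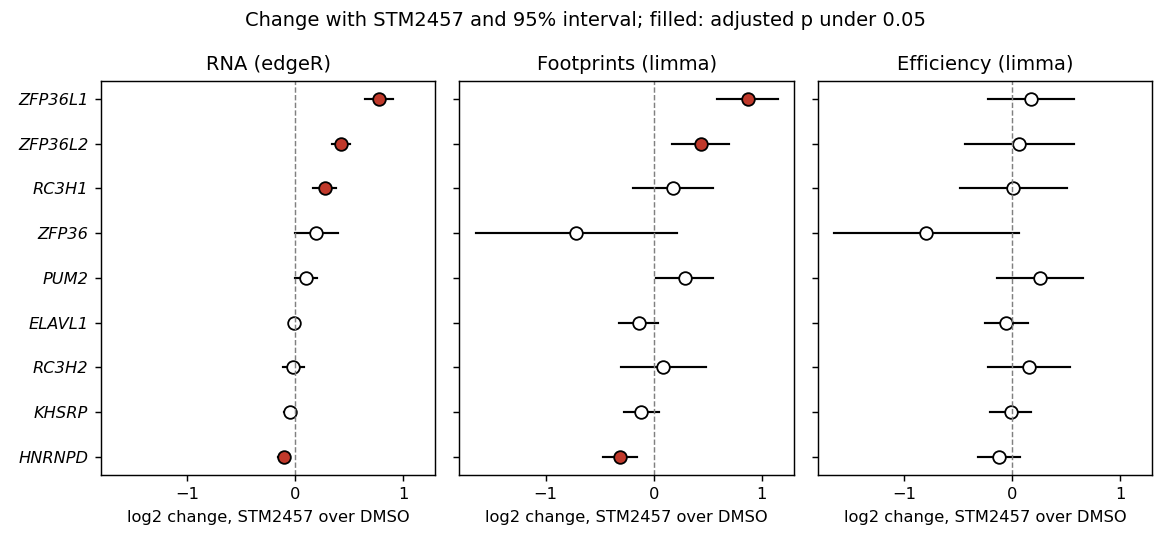
Log2 change with STM2457 over DMSO in RNA, footprints and efficiency for each member (circle) with its 95% interval (line), filled where the adjusted p is under 0.05. ZFP36L1 is highest in RNA (0.78) and footprints (0.87), HNRNPD is lower in both (-0.11 and -0.31), and all intervals of efficiency cross 0.

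The RNA signal of the table is not the deposited gene count rescaled. Its recovered reads amounted to 68.1 to 68.8% of the deposited counts of the same genes, but to 25.8 to 29.6% for RC3H1, 31.9 to 36.7% for ZFP36L2 and 81.3 to 83.2% for KHSRP. In this signal ELAVL1 (log2 -0.09, limma adjusted p = 0.00446) and KHSRP (log2 -0.10, limma adjusted p = 0.000984) were lower with STM2457. In that signal 62.1% of all genes were called, 27.3% higher and 34.8% lower. HNRNPD changed by -0.19 in it, ZFP36L1 by 0.70, ZFP36L2 by 0.37 and RC3H1 by 0.17, each past the test as well. Efficiency in the limma fits therefore compares footprints with an RNA measure whose changes differ somewhat from those of the gene counts, which the edgeR interaction uses.

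The level of efficiency differed far more between members than between arms. In the authors' deposited table the DMSO efficiency was highest for ZFP36L2 (2.06) and ELAVL1 (1.97), followed by HNRNPD (1.57), ZFP36L1 (1.55), ZFP36 (1.54), RC3H1 (1.252), KHSRP (0.867) and PUM2 (0.672). It was lowest for RC3H2 (0.222), against a median gene of 1.01. These levels use the RNA signal of the same table, whose share of the deposited counts differed between members. For RC3H2 that share was 46.2 to 47.9%, against 25.8 to 29.6% for RC3H1. By library, the footprint signal over the mean RNA signal of the arm ran from 0.195 to 0.270 for RC3H2 and from 1.12 to 1.45 for its paralog RC3H1, with no overlap.

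RC3H2 thus stood at the 3.54th percentile of the table in the authors' DMSO efficiency, whereas ZFP36L2 and ELAVL1 stood at the 93.1st and 91.7th. In the 2 DMSO libraries, ZFP36L2 (2.003 and 1.97) overlapped with its neighbour ELAVL1 (2.03 and 1.91), HNRNPD (1.502 and 1.64) with ZFP36L1 (1.55 and 1.49), and ZFP36L1 with ZFP36 (1.32 and 1.69). The other neighbours in this order did not overlap: RC3H1 was at 1.304 and 1.23, KHSRP at 0.843 and 0.890, and PUM2 at 0.672 and 0.701. The ratio cancels the length of a gene only if both assays were counted over the same stretch, which the sources used here do not state.

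**Figure D5:**
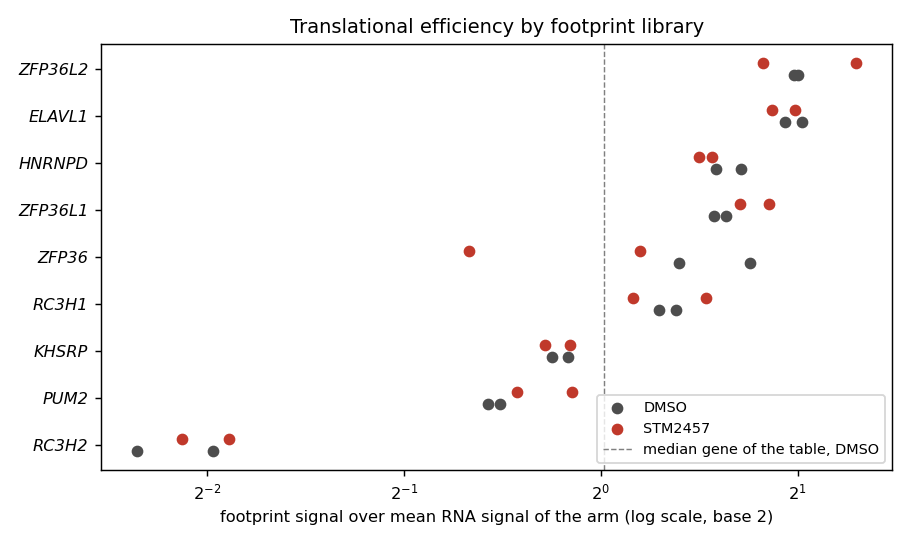
Footprint signal of each Ribo-seq library over the mean RNA signal of its arm (logarithmic axis, base 2), members ordered by the authors' DMSO efficiency. RC3H2 lies at 0.195 to 0.270 in all 4 libraries, and RC3H1 at 1.12 to 1.45.

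By a rule on likeness over the 8 RNA-seq libraries, the smallest root mean square difference of centred log2 CPM among 11137 genes, the genes closest to ZFP36L1 were FZD4, IRF2BPL and ARID1A. Their differences from it were 0.04, 0.05 and 0.05 log2 units per library. FZD4, a WNT receptor, went from 19.8 ± 1.24 to 33.1 ± 1.15 CPM, and ARID1A, a chromatin remodelling subunit, from 114.2 ± 7.83 to 190.3 ± 8.60 CPM. Among the 3 closest to HNRNPD were JPT1 and ATP6V0D1 (0.01 each), of which JPT1 went from 212.8 ± 3.53 to 199.0 ± 4.93 CPM.

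Relatives of the members, that is other RNA-binding regulators such as further ELAVL, PCBP, MEX3, CPEB and NANOS genes, changed in both directions. Of 45 listed, 40 were tested in RNA, and 13 were higher and 13 lower (median log2 -0.01 against 0.00 over all genes). Of all genes tested, 26.2% were higher and 21.6% lower. MEX3C, a ubiquitin ligase that binds RNA, rose from 31.2 ± 0.67 to 55.4 ± 2.43 CPM (edgeR adjusted p = 1.96e-09) and its paralog MEX3D from 32.1 ± 1.06 to 47.9 ± 3.32 CPM (edgeR adjusted p = 7.02e-07). HNRNPA0, an ARE-binding protein, rose by 0.46 and the poly(C)-binding protein gene PCBP1 by 0.41 on the log2 scale. With ERCC scaling 5 relatives were higher and 23 lower, where 12.1% of all genes were higher and 47.1% lower.

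Of 22 listed cofactors and modifying enzymes all were tested, and 6 were higher and 10 lower in RNA (median -0.06). These counts stand beside 26.2% and 21.6% of all genes. The 14-3-3 genes YWHAG (log2 0.64) and YWHAH (0.64), whose proteins bind phosphorylated ZFP36 proteins, and N4BP1 (0.76), which encodes an RNase, rose. YWHAZ, another 14-3-3 gene of the list, did not: its RNA averaged 647.7 ± 14.9 CPM with DMSO and 604.1 ± 17.1 CPM with STM2457. Its footprints were lower (log2 -0.56, limma adjusted p = 0.00359). YWHAZ falls outside the naming rule and was looked up after its values were seen. MAPKAPK3, a kinase of the p38 pathway related to the one that phosphorylates ZFP36, fell by 0.33. With ERCC scaling 4 cofactors were higher and 16 lower, beside 12.1% and 47.1% of all genes.

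Among 35 mRNAs described elsewhere as carrying AREs, 30 were tested, and 15 were higher and 2 lower in RNA (median 0.26, against 0.00 over all genes). The shares over all genes were 26.2% higher and 21.6% lower. With ERCC scaling the median was 0.07 against -0.19 over all genes, with 9 higher and 6 lower (12.1% and 47.1% of all genes). MYC went from 127.7 ± 2.46 to 307.9 ± 9.31 CPM, the phosphatase gene DUSP1 from 53.3 ± 2.07 to 100.3 ± 4.45 CPM, the antiproliferative gene BTG2 from 36.5 ± 3.83 to 78.3 ± 8.89 CPM and IER2 from 41.8 ± 2.03 to 61.5 ± 4.22 CPM (SD, n = 4). Many genes of this list are also serum-induced. Like the other lists, it was drawn up with earlier results of these data known, so its counts do not test for an excess. In footprints 7 of 21 tested were higher and 2 lower (median 0.13, against -0.02 over all genes), beside 9.59% and 6.13% of all genes. Whether the decay regulators play a part in these changes was not tested.

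Of 7 mRNAs known as Pumilio targets, a list that includes PUM2 itself, 4 were higher and 1 lower in RNA, with a median of 0.10. Over all genes 26.2% were higher and 21.6% lower, for this list and the Roquin targets alike. The ataxin gene ATXN1 rose by 0.61, the WNT receptor gene FZD8 by 0.88 and the cell cycle inhibitor gene CDKN1B by 0.33, whereas the transcription factor gene E2F3 fell by 0.38. With ERCC scaling 2 were higher and 2 lower, beside 12.1% and 47.1% of all genes. Of 7 Roquin targets, mostly genes of lymphocytes, 4 passed the filter and 2 were higher: REL, from 14.0 ± 0.93 to 16.8 ± 0.84 CPM, and IRF4, which averaged 0.308 CPM in the DMSO arm and 0.458 CPM in the STM2457 arm. The edgeR adjusted p was 0.00206 for REL and 0.0385 for IRF4, and DESeq2 called 1 of the 4. With ERCC scaling 0 of these 4 were higher and 1 was lower by edgeR.

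In efficiency, limma with a weight per assay called 0 of 37 relatives, 0 of 22 cofactors, 0 of 21 ARE mRNAs, 0 of 7 Pumilio targets and 0 of 2 Roquin targets. At an unadjusted p under 0.05 it had 6, 2, 1, 0 and 0 of them. After adjustment limma with a shared spread called 3, 3, 1, 0 and 0, and the edgeR interaction, with RNA from the gene counts, 4, 3, 1, 0 and 0. Over all 10906 genes the weighted limma fit called 113, the shared spread 825 and the edgeR interaction 522.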

How the data were processed

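The submitters' processing notes list, without roles, the build GRCh38.p12 and the tools STAR 2.7.3a, featureCounts (Subread 2.0.3), UMI-tools 1.1.2, SAMtools 1.10, bedtools 2.29.2, FastQC 0.11.9 and DESeq2. Raw counts of reads for each gene and 92 ERCC spike-ins are in the deposited RNA files. The series table holds signal that the authors normalized per library (DMSO columns are headed WT), the authors' ratio of mean footprint to mean RNA signal (efficiency) and the authors' log2 change of it. All footprint values were whole multiples of 1 read per library (100% within 0.1), so reads were recovered.

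Members and lists were chosen with earlier results of these data known. RNA counts were tested with edgeR 4.0.16 (R 4.3.3; TMM, filterByExpr), footprints with limma 3.58.1 on log2(signal + 1) for genes with a mean of at least 10 reads, and efficiency as the limma interaction of assay and treatment with a weight per assay. DESeq2 1.42.0 was an alternative. Symbols matched 60306 of 60662 genes. Named were all members, METTL3, up to 4 called genes per list with the smallest p, and the 3 genes closest to the members with the largest called increase and decrease. Some results under these rules, 1 of the 5 paralog ratios among them, are not reported here. The tests were tried on simulated data.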

Additional observations from a re-analysis of the deposited data

How the results depend on the processing

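Settings moved the members' calls as follows. With the replicate block edgeR called 9542 genes in RNA, limma 1719 in footprints and 118 in efficiency, and 4, 3 and 0 members, so no member's call changed. Same-numbered RNA-seq libraries of the arms correlated in their deviations at 0.15, 0.23, 0.15 and 0.08, and footprint libraries at 0.01. Not every library correlated best with its own number, so the numbers were not taken as pairs. RNA-seq replicates 1 and 2 correlated positively across the arms (0.11 to 0.23), as did replicates 3 and 4 (0.076 to 0.27). Between these 2 groups every correlation was negative (-0.26 to -0.085). The main tests and the permutations have no term for this grouping, whose origin is not given. The calls of HNRNPD and PUM2 in RNA differed between the 2 groups. Efficiency calls over all genes were 825 with a shared spread and 522 with the edgeR interaction, against 113. Leaving out 1 library gave 37 to 100 calls in efficiency, 1004 to 1464 in footprints (1715 with all) and 1 to 3 members in footprints. PUM2 turned negative with ERCC scaling (-0.10), also without STM2457 replicate 4, the library with the highest ERCC share (-0.070, a setting chosen after seeing the data). Efficiency turned negative with the edgeR interaction for RC3H1 (-0.087), and with RNA-seq replicates 1 and 2 only for RC3H1 (-0.059) and ZFP36L2 (-0.083). The edgeR interaction takes RNA from the gene counts, where RC3H1 changed by 0.28, against 0.17 in the RNA signal of the table. Its median gene was at -0.053, against 0.006 in the main efficiency fit. Leaving out 1 library, signs also varied for RC3H2 in RNA (-0.042 to 0.022), for footprints of RC3H1 (-0.0072 to 0.36) and RC3H2 (-0.10 to 0.28), and for efficiency of ZFP36L2 (-0.17 to 0.31), ELAVL1 (-0.11 to 0.0058), KHSRP (-0.078 to 0.051), RC3H1 (-0.17 to 0.20) and RC3H2 (-0.036 to 0.35). None of these turned values passed the test, and the cause was not tested. The 4 paralog ratios kept their sign in all alternatives, which carry no test. ZFP36L1 kept its direction and call in RNA in all 16 alternatives (0.58 to 0.85) and in footprints in all 9 (0.80 to 0.94), and ZFP36L2 in RNA in all 16 (0.23 to 0.47). ZFP36 has the fewest footprint reads of the members, 9 to 21 per library. With ERCC scaling 2159 genes were higher and 8383 lower in RNA, against 4669 and 3842 with TMM.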

Other observations

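Among 37 relatives of the members tested with limma, footprints of 5 were lower and of 1 higher. Of all genes 6.13% were lower and 9.59% higher. The 6 called of 37 in either direction are near the 15.7% of all genes. The called relatives were looked up after the values were seen, and the 5 lower ones fall outside the naming rule. The lower ones were HNRNPDL (log2 -0.30) and HNRNPAB (-0.25), the closest paralogs of HNRNPD, MEX3A (-1.01), UNK (-0.49) and the Pumilio partner gene NANOS1 (-1.65), and HNRNPA0 was higher (0.35). The SE was 0.34 for MEX3A, 0.16 for UNK and 0.55 for NANOS1. Their limma adjusted p were 0.0306, 0.0310 and 0.0315, from 2 against 2 libraries. RNA of HNRNPDL averaged 495.8 ± 10.4 CPM in the DMSO arm and 502.0 ± 11.6 CPM in the STM2457 arm, that of HNRNPAB at 570.4 ± 12.5 and 563.1 ± 18.2 CPM, and that of MEX3A at 39.7 ± 2.86 and 48.7 ± 4.48 CPM (SD, n = 4). RNA of UNK went from 86.6 ± 0.958 to 76.9 ± 3.04 CPM and that of NANOS1 from 9.87 ± 0.426 to 7.66 ± 0.741 CPM, lower on average as were their footprints. These CPM are from the gene counts, not from the RNA signal that efficiency uses. In efficiency, limma with a weight per assay called 0 of the 37 relatives (smallest limma adjusted p = 0.165).

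Among cofactors, footprints of NUFIP2, which encodes a Roquin-binding protein, had the smallest p of the list (log2 0.68, SE 0.10, limma adjusted p = 4.4e-07), and its RNA averaged 276.4 ± 10.8 CPM in the DMSO arm and 392.1 ± 26.7 CPM in the STM2457 arm (SD, n = 4). This gene was also chosen after its values were seen.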
